A study of Mus musculus with 8 samples.

Results

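The 8 genes described here encode the transcription factors through which the circadian clock passes its rhythm on to other genes: Dbp, Tef, Hlf, Nfil3, Bhlhe40, Bhlhe41, Ciart and Rora. They were taken by name from the 23993 genes of the expression table, and all 8 passed a filter of a mean of at least 1 FPKM (fragments per kilobase of transcript corrected for library size, a level per length), as did 12107 genes in all. RNA of whole thoracic aortas from C57BL/6 males aged 24 weeks was sequenced in 8 libraries. Of these, 4 knockout (KO) libraries are from mice with both Tsc1 alleles floxed, Myh11-CreERT2 and the mT/mG reporter, and 4 control (Ctrl) libraries are from mice with Myh11-CreERT2, mT/mG and wild-type Tsc1. Both genotypes received tamoxifen at 1.5 weeks, which activates a Cre recombinase driven by the smooth muscle gene Myh11. In KO mice this design is meant to remove Tsc1, a restraint on the growth kinase mTORC1, from smooth muscle and not from other cells. How complete and how specific the removal was in these mice was not tested. The labels name smooth muscle cells, but whole vessel was extracted, so fewer cells of a type and less RNA per cell cannot be told apart.

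In mammals the clock is a loop in which BMAL1 (Arntl) and CLOCK bind E-box sequences and switch on their own repressors, the PER and CRY proteins. The same E-boxes drive Dbp, Bhlhe40, Bhlhe41 and Ciart. DBP, TEF and HLF, the PAR bZIP activators, bind D-box sites, and NFIL3 (E4BP4) represses from the same sites. RORA activates, and the REV-ERB proteins (Nr1d1, Nr1d2) repress, genes with a ROR element, Arntl and Nfil3 among them. In blood vessels this system is known for daily rhythms of gene expression in the wall.

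Promoter sequences show which of these elements lie next to the start sites of the members that moved together or in opposition. RefSeq promoters of GRCm38.p6, which has the coordinates of mm10, were matched by symbol for 7 of the 8 genes (8 entries of 300 bases, from 250 before to 50 after the start). They were searched on both strands for the E-box CACGTG, for the D-box letters TTATGTAA and TTACGTAA, and for the core of the ROR element, TAGGTCA or TGGGTCA, none of which overlapped another in these windows. The E-box was present in 7.15% of all 32851 promoters in the table, the D-box in 1.06% and the ROR core in 6.45%. Ciart held 3 E-boxes (3 or more stood in 29 promoters of the table, 0.0883%), beginning 116, 58 and 44 bases before the start. Bhlhe41 held 1, and each of 2 Tef promoters held 1. Nfil3 held the ROR core on the opposite strand, beginning 12 bases before the start. The promoters of Dbp, Hlf and Rora held none of these letters in this window. The sequences below run 5′ to 3′ on the strand of the gene, and capitals mark the matches.
Ciart, chr3:95882179-95882478, minus strand: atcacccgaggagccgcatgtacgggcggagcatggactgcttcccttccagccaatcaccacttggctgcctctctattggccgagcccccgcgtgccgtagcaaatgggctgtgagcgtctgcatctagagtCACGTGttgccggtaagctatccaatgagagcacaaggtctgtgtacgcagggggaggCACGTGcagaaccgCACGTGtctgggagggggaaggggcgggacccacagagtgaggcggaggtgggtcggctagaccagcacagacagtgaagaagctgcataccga
Bhlhe41, chr6:145865371-145865670, minus strand: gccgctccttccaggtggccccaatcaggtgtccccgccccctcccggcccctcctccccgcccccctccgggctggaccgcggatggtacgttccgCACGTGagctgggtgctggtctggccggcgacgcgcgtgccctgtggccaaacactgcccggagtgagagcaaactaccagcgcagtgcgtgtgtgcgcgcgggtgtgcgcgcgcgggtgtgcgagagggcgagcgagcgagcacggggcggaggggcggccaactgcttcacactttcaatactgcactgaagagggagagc
Tef, chr15:81802423-81802722, plus strand: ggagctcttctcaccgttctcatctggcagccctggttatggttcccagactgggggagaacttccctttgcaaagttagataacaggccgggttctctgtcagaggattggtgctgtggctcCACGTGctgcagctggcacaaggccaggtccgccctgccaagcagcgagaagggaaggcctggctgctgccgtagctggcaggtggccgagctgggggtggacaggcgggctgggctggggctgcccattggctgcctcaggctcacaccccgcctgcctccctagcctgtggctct
Nfil3, chr13:52980990-52981289, minus strand: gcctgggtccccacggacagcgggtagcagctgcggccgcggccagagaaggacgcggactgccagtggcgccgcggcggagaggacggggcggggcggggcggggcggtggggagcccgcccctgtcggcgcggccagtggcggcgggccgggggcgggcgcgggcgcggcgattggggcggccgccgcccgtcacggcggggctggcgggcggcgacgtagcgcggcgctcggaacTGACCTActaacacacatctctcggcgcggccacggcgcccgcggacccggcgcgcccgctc

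The number of genes at 1 FPKM or more ran from 11867 to 12083 over the libraries. Relative depth, read from the steps between low FPKM values, ran from 0.758 (KO 1) to 2.46 (Ctrl 3) with Ctrl 1 as the unit, and absolute depth is unknown. Tsc1 averaged 3.41 ± 0.315 FPKM in KO and 5.03 ± 0.952 FPKM in Ctrl libraries (SD, n = 4 each). Smooth muscle markers were abundant throughout, with at least 5745 FPKM of Acta2 in every library. Libraries are compared by genotype and by their number, odd (1 and 3 of each genotype) against even (2 and 4). The labels give the numbers no meaning, and the hour of tissue collection is not given in the sources used here. This division is that of the second principal component of these libraries (16.6% of the variance), on which Dbp, Nfil3 and Ciart had the sixth, the ninth and the fifteenth largest loadings by size. Differences between odd and even numbers therefore describe these libraries, and their p-values are not independent evidence for the division.

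Of the 8 output factors 6 differed between odd and even library numbers, and 1 differed between genotypes, or 4 with library number in the model. Odd-numbered libraries were low in Dbp, Tef, Hlf, Bhlhe41 and Ciart and high in Nfil3, in both genotypes. Of the 8 genes, 1 was higher and 5 were lower in odd than in even numbers (limma, adjusted p under 0.05 over 12107 genes), 2 did not pass, and 9.11% of all tested genes were called (3.73% higher and 5.38% lower). In 5 of the 8 (Dbp, Tef, Hlf, Bhlhe41 and Ciart) all 4 odd-numbered libraries lay below all 4 even-numbered ones, and 9.59% of tested genes were separated without overlap in either direction. The median log2 difference, odd minus even, was -1.40 over the 8 genes and -0.016 over all tested genes. For genotype, 1 of the 8 was higher in KO and 0 were lower, while 32.2% of all tested genes were called (17.1% higher and 15.0% lower). With library number in the model 3 were higher in KO (Bhlhe40, Tef and Ciart) and 1 was lower (Nfil3), while 41.2% of all tested genes were called (21.8% higher and 19.4% lower). The median genotype difference, KO minus Ctrl, was 0.46 over the 8 and 0.0065 over all genes. The genotype difference itself depended on library number for 2 of the 8, positively for Dbp and negatively for Rora, with 1.62% of all genes called (0.999% positive and 0.619% negative).

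**Figure D1:**
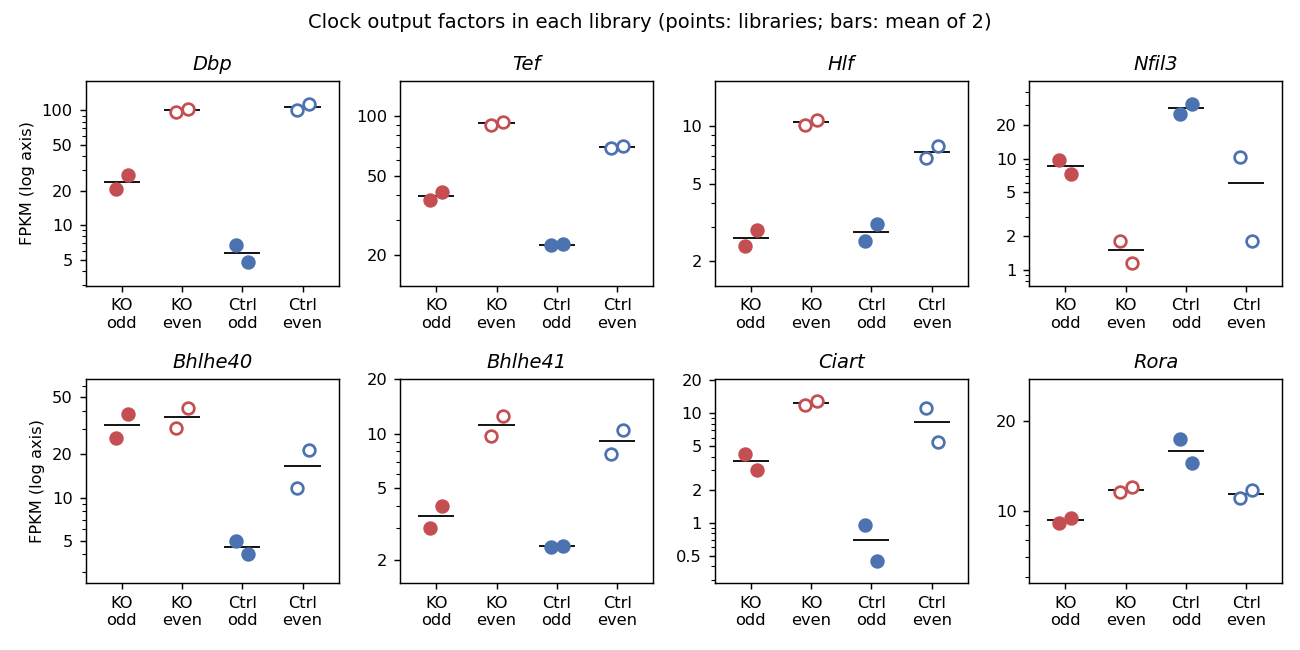
FPKM of the 8 genes in each library on log axes, one panel per gene, with KO libraries (red) left of Ctrl libraries (blue), odd numbers as filled and even numbers as open points, and a bar at the mean of each pair. Even-numbered points sit above odd-numbered ones in both genotypes for Dbp, Tef, Hlf, Bhlhe41 and Ciart, below them for Nfil3, and all 4 KO points of Bhlhe40 (26.0 to 42.2 FPKM) lie above all 4 Ctrl points (4.02 to 21.5 FPKM).

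Dbp, the most rhythmic of the D-box activators in many mouse organs, had 20.5, 96.8, 27.4 and 104 FPKM in KO 1 to 4, against 6.73, 102, 4.75 and 113 FPKM in Ctrl 1 to 4. The even-numbered libraries of both genotypes were high and close together, and the odd-numbered ones were low, with the KO pair above the Ctrl pair. The log2 difference, odd minus even, was -3.03 (SE 0.37, limma adjusted p = 0.00637). It was -2.03 within KO (95% CI -2.43 to -1.64, adjusted p = 0.00151) and -4.02 within Ctrl (95% CI -4.42 to -3.62, adjusted p = 1.47e-04), and mean FPKM of even numbers were 4.19 times those of odd numbers in KO and 18.7 times in Ctrl. The interaction of genotype and number was 1.98 (SE 0.24, limma adjusted p = 0.0145). In odd numbers Dbp was higher in KO (log2 difference 1.89, SE 0.17, adjusted p = 2.23e-04), and in even numbers the difference was -0.09 (95% CI -0.49 to 0.30, adjusted p = 0.707). Over all 8 libraries the genotype difference of 0.90 did not pass (SE 1.08, adjusted p = 0.556). The call of the interaction was lost without KO 2 (1.94, adjusted p = 0.0806), KO 4 (2.03, 0.0869) or Ctrl 4 (1.91, 0.0658), over a range of adjusted p from 0.0132 to 0.0869 in 14 alternatives. The Dbp locus (chromosome 7, 45705088 to 45710203, mm10) overlaps the sphingosine kinase gene Sphk2 on the other strand by 737 bases, and the strand setting of the counting is not given in the sources used here. Sphk2 had 20.9, 31.5, 19.9 and 32.1 FPKM in KO 1 to 4, against 14.9, 38.5, 14.7 and 38.2 FPKM in Ctrl 1 to 4, the same order of odd and even numbers, and its part in the Dbp values was not tested.

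Tef (chromosome 15, 81802421 to 81826863), the second PAR bZIP activator, had 37.7, 90.5, 41.6 and 94.0 FPKM in KO 1 to 4, against 22.4, 69.4, 22.7 and 71.2 FPKM in Ctrl 1 to 4. Libraries of one genotype and one kind of number were close together, so that the 4 pairs formed separate levels. The log2 difference, odd minus even, was -1.40 (SE 0.08, limma adjusted p = 9.00e-04), at -1.20 within KO and -1.60 within Ctrl, and the call was kept under all 16 alternatives. Tef was higher in KO among odd numbers (log2 difference 0.78, SE 0.07, adjusted p = 1.76e-04) and among even numbers (0.39, SE 0.07, adjusted p = 0.00538). Without number in the fit the same genotype difference, 0.59, did not pass (SE 0.48, adjusted p = 0.381), and with the kind of number added to the fit it did (SE 0.08, adjusted p = 0.00107). The interaction of 0.40 did not pass (95% CI 0.18 to 0.62, adjusted p = 0.0921).

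Hlf (chromosome 11, 90336536 to 90390895), the third activator, was the least abundant, with 2.38, 10.2, 2.90 and 10.8 FPKM in KO 1 to 4, against 2.54, 6.85, 3.10 and 7.93 FPKM in Ctrl 1 to 4. The odd-numbered libraries of the genotypes overlapped, and among even numbers both KO libraries lay above both Ctrl libraries. The log2 difference, odd minus even, was -1.40 (SE 0.12, limma adjusted p = 0.00309), at -1.66 within KO and -1.14 within Ctrl. Hlf was higher in KO among even numbers (log2 difference 0.46, SE 0.12, adjusted p = 0.0241), while among odd numbers the difference was -0.07 (95% CI -0.34 to 0.20, adjusted p = 0.679). That pattern is the opposite of the one seen for Dbp in direction, but the Hlf interaction of -0.53 did not pass (95% CI -0.91 to -0.14, adjusted p = 0.175). The genotype difference over all libraries was 0.19 (SE 0.49, adjusted p = 0.794), and its sign turned without KO 2, KO 4 or Ctrl 1 (-0.10 to -0.03).

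Nfil3 (chromosome 13, 52967209 to 52981073), the repressor at D-box sites, ran the other way, with 9.76, 1.83, 7.28 and 1.15 FPKM in KO 1 to 4, against 25.4, 10.3, 31.1 and 1.83 FPKM in Ctrl 1 to 4. Odd numbers were high and even numbers low, and the KO odd pair lay below the Ctrl odd pair and just under Ctrl 2. Ctrl 2 stood far above the other even-numbered libraries, so odd and even overlapped. The log2 difference, odd minus even, was 2.15 (SE 0.38, limma adjusted p = 0.0169), and the call was lost without KO 1 (2.12, adjusted p = 0.0542), KO 2 (2.27, 0.0518) or KO 4 (2.11, 0.0541), over a range of adjusted p from 0.0127 to 0.180 in 16 alternatives. It was 1.93 within KO (95% CI 0.64 to 3.23, adjusted p = 0.0728) and 2.36 within Ctrl (95% CI 1.07 to 3.66, adjusted p = 0.0567). The genotype difference was -1.41 (SE 0.81, adjusted p = 0.216). It passed with number as a covariate (adjusted p = 0.0187) and without Ctrl 4 (-2.14, adjusted p = 0.039). Among odd numbers it was -1.62, which did not pass with the spread shared over all libraries (adjusted p = 0.0609) and passed in a fit on the odd-numbered libraries alone (adjusted p = 0.00582). The interaction of -0.43 did not pass (95% CI -2.26 to 1.40, adjusted p = 0.834), and without Ctrl 4 its sign turned (0.57).

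Because DBP and NFIL3 share binding sites, their relative RNA levels were set side by side, per length. The ratio of Dbp to Nfil3 FPKM was 2.10, 52.8, 3.77 and 90.1 in KO 1 to 4, against 0.265, 9.86, 0.153 and 61.8 in Ctrl 1 to 4. Nfil3 RNA exceeded Dbp RNA in the 2 odd-numbered Ctrl libraries and in no other library. In those 2 libraries Nfil3 was also the most abundant of the 8 genes, whereas it was the least abundant in KO 2, KO 4 and Ctrl 4. Tef led in the odd-numbered KO libraries, and Dbp led in the even-numbered libraries of both genotypes.

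**Figure D2:**
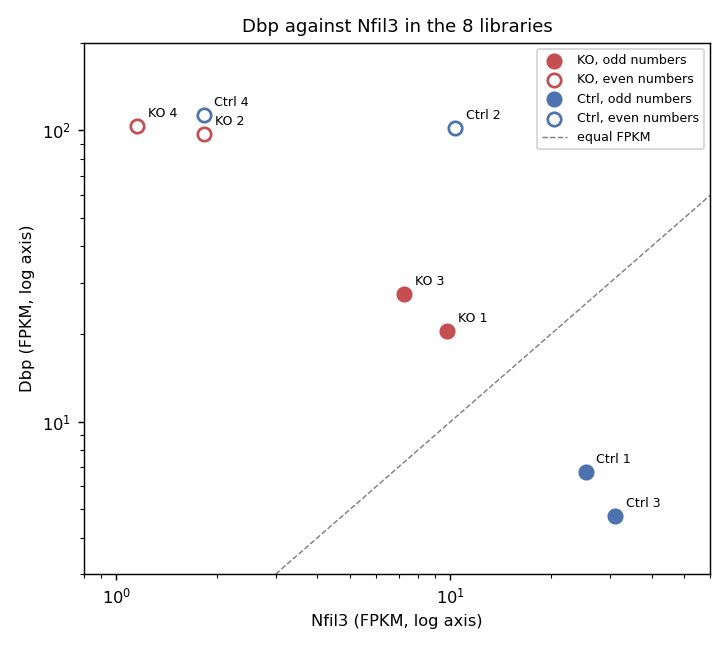
Dbp FPKM (vertical, log axis) against Nfil3 FPKM (horizontal, log axis) in the 8 libraries, KO in red and Ctrl in blue, odd numbers filled and even numbers open, with a dashed line at equal FPKM. The 2 odd-numbered Ctrl libraries lie below the line, the odd-numbered KO libraries lie above it at 20.5 and 27.4 FPKM of Dbp, and all even-numbered libraries lie at 96.8 FPKM of Dbp or more.

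**Figure D3:**
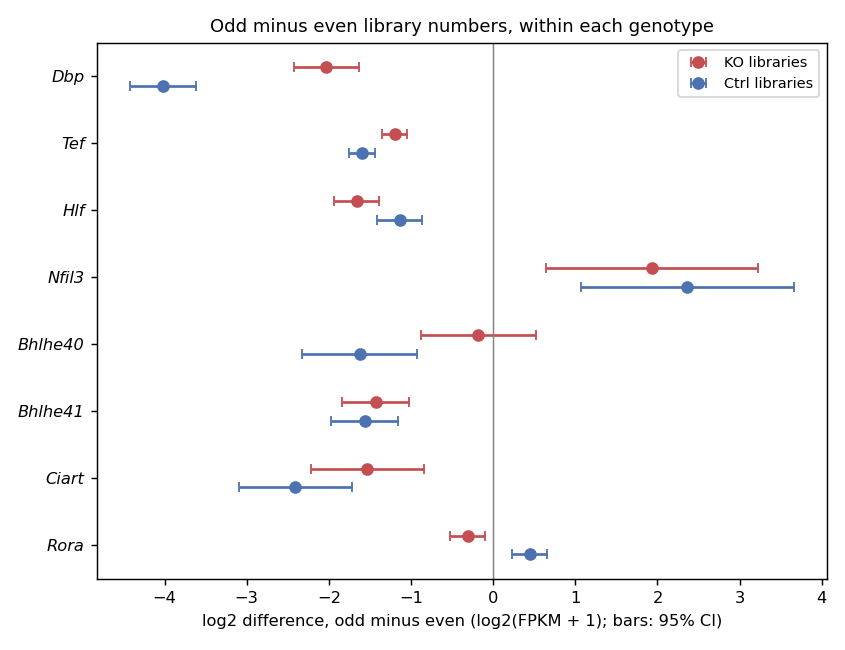
Log2 difference, odd minus even numbers, of each gene within KO (red, upper) and within Ctrl libraries (blue, lower), on log2(FPKM + 1), with 95% confidence intervals from the fit with 1 mean per genotype and kind of number. Dbp lies at -2.03 in KO and -4.02 in Ctrl with intervals that do not meet, Nfil3 lies to the right of 0 in both, and Rora lies on opposite sides of 0.

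Bhlhe40 (DEC1), an E-box repressor that is also induced by many stimuli, was higher in KO over all libraries, with or without library number in the model. It had 26.0, 30.8, 38.5 and 42.2 FPKM in KO 1 to 4, against 4.98, 11.6, 4.02 and 21.5 FPKM in Ctrl 1 to 4. All 4 KO libraries lay above all 4 Ctrl libraries, a separation in either direction shared by 33.9% of tested genes. Means were 34.4 ± 7.32 FPKM in KO and 10.5 ± 8.07 FPKM in Ctrl (SD, n = 4 each), with a log2 difference of 1.86 (SE 0.43, limma adjusted p = 0.0116). The difference was 2.58 among odd numbers (95% CI 1.88 to 3.28, adjusted p = 7.34e-04) and 1.14 among even numbers (95% CI 0.44 to 1.83, adjusted p = 0.0266). In a fit on the even-numbered libraries alone the call was lost (1.14, adjusted p = 0.0598), and over 18 alternatives the adjusted p ran from 0.00221 to 0.0598. The difference between these differences did not pass (interaction 1.44, 95% CI 0.45 to 2.43, adjusted p = 0.155). Odd and even numbers differed by -1.62 within Ctrl (adjusted p = 0.032) and by -0.18 within KO (95% CI -0.88 to 0.52, adjusted p = 0.743). The gene lies on chromosome 6, 108660629 to 108666925, and overlaps the antisense gene 0610040F04Rik, which is listed at 0 in 7 of 8 libraries and at 0.0151 FPKM in Ctrl 3.

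Its paralog Bhlhe41 (DEC2, chromosome 6, 145858243 to 145865558) had 3.01, 9.71, 3.99 and 12.6 FPKM in KO 1 to 4, against 2.38, 7.76, 2.40 and 10.5 FPKM in Ctrl 1 to 4. Even numbers were high and odd numbers low, and KO and Ctrl overlapped among even numbers. The log2 difference, odd minus even, was -1.50 (SE 0.12, limma adjusted p = 0.0023), at -1.43 within KO and -1.56 within Ctrl. The genotype difference of 0.33 did not pass (SE 0.52, adjusted p = 0.656), nor did the interaction of 0.13 (95% CI -0.44 to 0.71, adjusted p = 0.835), whose sign turned without KO 2, KO 3 or Ctrl 4 (-0.06 to -0.02). The ratio of Bhlhe40 to Bhlhe41 FPKM was 8.67, 3.17, 9.66 and 3.36 in KO 1 to 4, against 2.10, 1.50, 1.68 and 2.06 in Ctrl 1 to 4. Every KO library lay above every Ctrl library in this ratio, the odd-numbered KO libraries the most. Bhlhe40 alone was separated in the same way, as 33.9% of tested genes were in either direction.

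Ciart (CHRONO), a repressor that binds BMAL1 and whose promoter above holds 3 E-boxes, had 4.29, 11.8, 3.05 and 13.0 FPKM in KO 1 to 4, against 0.943, 11.2, 0.444 and 5.47 FPKM in Ctrl 1 to 4. As with Dbp, the odd-numbered Ctrl libraries were lowest and the odd-numbered KO libraries came next. The log2 difference, odd minus even, was -1.97 (SE 0.25, limma adjusted p = 0.00724), at -1.53 within KO and -2.41 within Ctrl. Ciart was higher in KO among odd numbers (log2 difference 1.47, SE 0.29, adjusted p = 0.00811), and mean FPKM there were 5.29 times those of Ctrl. Among even numbers the difference of 0.59 did not pass (95% CI -0.10 to 1.28, adjusted p = 0.17), and neither did the interaction of 0.88 (95% CI -0.10 to 1.85, adjusted p = 0.346). The genotype difference over all libraries, 1.03, did not pass (SE 0.70, adjusted p = 0.297), but did with number as a covariate (adjusted p = 0.0124). At under 1 FPKM in Ctrl 1 and Ctrl 3 the log2(FPKM + 1) scale understates such changes. Ciart (chromosome 3, 95878503 to 95882251) lies wholly within the antisense gene C920021L13Rik, which had 0.399 to 0.978 FPKM in KO and 0.319 to 0.456 FPKM in Ctrl libraries.

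Rora (chromosome 9, 68653786 to 69388246), the activator at ROR elements, varied least, with 9.13, 11.6, 9.47 and 12.0 FPKM in KO 1 to 4, against 17.4, 11.0, 14.5 and 11.8 FPKM in Ctrl 1 to 4. The even-numbered libraries of both genotypes overlapped, the odd-numbered Ctrl libraries lay above them and the odd-numbered KO libraries below. The interaction was -0.76 (SE 0.13, limma adjusted p = 0.0432). Among odd numbers Rora was lower in KO (log2 difference -0.71, SE 0.09, adjusted p = 0.00118), and among even numbers the difference was 0.04 (95% CI -0.17 to 0.26, adjusted p = 0.748). Odd minus even was -0.31 within KO (adjusted p = 0.0793) and 0.44 within Ctrl (adjusted p = 0.0423), and over both genotypes 0.07 (adjusted p = 0.805). The call of the interaction was lost in 9 of 14 alternatives, among them leaving out any single library but Ctrl 3 (-0.80 to -0.63), with adjusted p from 0.0369 to 0.179 over the 14. Over all libraries the genotype difference of -0.33 did not pass (SE 0.14, adjusted p = 0.109).

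**Figure D4:**
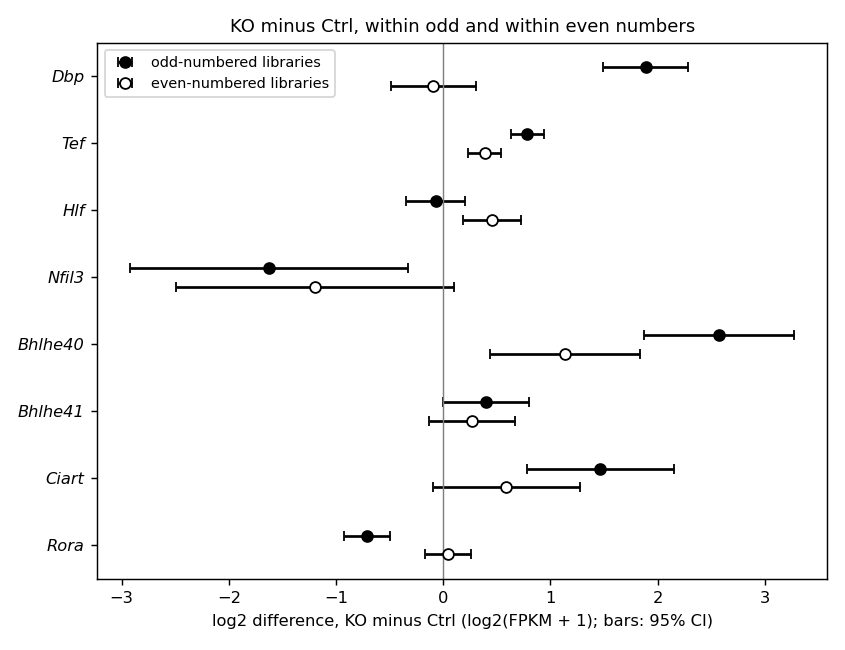
Log2 difference, KO minus Ctrl, of each gene among odd-numbered (filled, upper) and among even-numbered libraries (open, lower), on log2(FPKM + 1), with 95% confidence intervals from the fit with 1 mean per genotype and kind of number. Among odd numbers Dbp (1.89), Tef (0.78), Bhlhe40 (2.58) and Ciart (1.47) lie right of 0 and Rora (-0.71) left of it, and among even numbers Dbp (-0.09) and Rora (0.04) lie close to 0.

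Among odd numbers 4 of the 8 genes were higher in KO (Dbp, Tef, Bhlhe40 and Ciart), 1 was lower (Rora) and 3 did not pass, where 31.3% of all tested genes were called (16.8% higher and 14.5% lower). Among even numbers 3 were higher (Tef, Hlf and Bhlhe40), 0 were lower and 5 did not pass, where 29.8% of all genes were called (15.5% higher and 14.3% lower). Within KO libraries 5 of the 8 were lower in odd numbers and 0 higher, against 9.23% of all genes called (4.57% higher and 4.67% lower), and within Ctrl libraries 6 were lower and 1 higher, against 4.60% (1.81% higher and 2.79% lower). These within-group comparisons rest on 2 libraries a side and share 1 estimate of the spread.

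The core loop genes split by library number as well. Of 16 listed genes 15 were tested, of which 3 were higher in odd numbers (Arntl, Clock and Npas2), 4 were lower (Per2, Per3, Cry2 and Nr1d2) and 8 did not pass, with a median of -0.07 against -0.016 over all genes, of which 3.73% were higher and 5.38% lower. The call of Clock (0.32, adjusted p = 0.0236) was lost in 7 of 16 alternatives, among them leaving out KO 2, KO 3, Ctrl 1, Ctrl 3 or Ctrl 4, with adjusted p from 0.0194 to 0.143 over the 16. Arntl (BMAL1) had 10.5, 1.15, 11.2 and 1.67 FPKM in KO 1 to 4, against 16.4, 2.52, 19.3 and 4.53 FPKM in Ctrl 1 to 4 (log2 difference, odd minus even, 2.20, limma adjusted p = 9.00e-04). Arntl was high in the odd-numbered libraries, where Dbp was low, and low in Ctrl 2, where Nfil3 (10.3 FPKM) was as high as in the odd-numbered KO libraries. Nr1d1 (REV-ERB alpha), which represses Arntl and Nfil3, did not pass (-0.63, SE 0.19, adjusted p = 0.0804), and its close relative Nr1d2 was lower in odd numbers (-1.13, SE 0.11, adjusted p = 0.00309). For genotype, in the fit without library number, 0 of the 15 core genes passed by limma, against 32.2% of all tested genes. At an unadjusted p under 0.05 there were 2 of the 15, against 5231 of all 12107 tested genes. Among odd numbers 4 of the 15 were called higher in KO and 3 lower (16.8% and 14.5% of all genes). Among even numbers 1 was called higher and 2 lower (15.5% and 14.3% of all genes). Cry1, an E-box repressor, was the core gene whose genotype difference depended on number (interaction -1.60, SE 0.14, adjusted p = 0.00635). It had 1.54, 2.76, 1.46 and 2.60 FPKM in KO 1 to 4, against 3.21, 1.07, 3.53 and 1.20 FPKM in Ctrl 1 to 4, so that odd numbers were low in KO and high in Ctrl.

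Other clock-controlled genes followed the division in part. Of 7 genes that are rhythmic in many mouse organs but are not factors of the loop, 2 were lower in odd numbers (Usp2, a deubiquitinase, -0.52, and the tetraspanin Tspan4, -0.86) and 0 were higher. Of all tested genes 5.38% were lower in odd numbers and 3.73% were higher. The call of Usp2 was lost in 10 of 16 alternatives, among them leaving out any single library but Ctrl 4, with adjusted p from 0.0307 to 0.259 over the 16. For genotype, 2 of these 7 rose in KO, where 17.1% of all genes did. Nampt, the rate-limiting enzyme of NAD salvage, had 33.5, 38.2, 29.4 and 44.1 FPKM in KO 1 to 4, against 20.3, 21.5, 14.4 and 19.9 FPKM in Ctrl 1 to 4 (log2 difference 0.90, SE 0.15, limma adjusted p = 0.00235). Lonrf3 had 1.92 to 2.46 FPKM in KO and 0.496 to 1.22 FPKM in Ctrl libraries (0.79, SE 0.13, adjusted p = 0.00199). In both genes the 4 KO libraries lay above the 4 Ctrl libraries, a separation in either direction shared by 33.9% of tested genes. Of 4 genes reported to depend on the PAR bZIP factors in mouse liver, kidney or brain, 3 were tested. Of these 0 differed between odd and even numbers by limma, against 9.11% of all genes. At an unadjusted p under 0.05 there were 2 (Pdxk and Por), against 3395 of all 12107 tested genes. For genotype 1 of the 3 was higher in KO, against 17.1% of all genes. That gene was Pdxk, pyridoxal kinase, with 10.8 to 13.7 FPKM in KO and 7.29 to 9.70 FPKM in Ctrl libraries (log2 difference 0.51, SE 0.10, adjusted p = 0.00482).

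Among genes induced by glucocorticoids, hormones with a daily rhythm, 1 of 8 was higher and 2 were lower in odd numbers, against 3.73% and 5.38% of all genes. Pdk4, a kinase that restrains pyruvate oxidation, was the higher one (1.29, SE 0.21, limma adjusted p = 0.0131, or 0.0515 without KO 2, in a range of 0.00856 to 0.180 over 16 alternatives). The metallothioneins Mt1 (-1.05, SE 0.15, adjusted p = 0.0112) and Mt2 (-1.28, SE 0.17, adjusted p = 0.00846) were the lower ones. The calls of Pdk4, Mt1 and Mt2 were each lost in 2 of 16 alternatives. Adjusted p ran from 0.00771 to 0.123 for Mt1 and from 0.0067 to 0.105 for Mt2. For genotype, in the fit without library number, 0 of these 8 passed by limma, against 32.2% of all genes. At an unadjusted p under 0.05 there was 1 (Mt1), against 5231 of all 12107 tested genes. Among odd numbers 2 of the 8 were called higher in KO and 0 lower (16.8% and 14.5% of all genes). Among even numbers 2 were called higher and 0 lower (15.5% and 14.3% of all genes). The 12 listed immediate early genes respond to handling of tissue within minutes. Of these, 0 were called by limma for genotype, number or the interaction, against 32.2%, 9.11% and 1.62% of all genes. At an unadjusted p under 0.05 there were 0 for genotype, 0 for number and 6 for the interaction. Of all 12107 tested genes 5231, 3395 and 2010 were under that limit. Among odd numbers 2 of the 12 were called higher in KO, against 16.8% of all genes, and among even numbers 0 were called. Their summed level was 244 to 879 FPKM in odd-numbered and 204 to 222 FPKM in even-numbered KO libraries, and 239 to 284 FPKM in odd-numbered and 316 to 703 FPKM in even-numbered Ctrl libraries. The highest sums were those of KO 3 (879 FPKM) and Ctrl 2 (703 FPKM), single libraries that stood above the others of their genotype. Fos had 154 FPKM in KO 3 and 4.29 to 8.05 FPKM in the other KO libraries, and Atf3 had 134 FPKM in Ctrl 2 and 4.05 to 17.0 FPKM in the other Ctrl libraries.

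By the closeness of log2 profiles centred on each gene's mean over the 8 libraries, the nearest non-member to Dbp was Tcap, a titin-binding protein of striated muscle, with a root mean square difference of 0.73, followed by Per3 (0.97) and Mt2 (1.03). For Nfil3 the nearest were the heat shock genes Hspa1b (0.38) and Hspa1a (0.61), near-identical copies whose fragments may be shared out between them, and Npas2 (0.74). For Ciart they were Mt2 (0.44), Mt1 (0.50) and Tcap (0.58). These 3 members had the widest ranges of the 8 over libraries, 4.31, 3.90 and 3.27 on the log2 scale.

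Markers of several cell types moved with library number, with genotype or with both. Between odd and even numbers, 3.73% of all tested genes were higher in odd numbers and 5.38% were lower. Of 7 tested macrophage markers 4 were higher in odd numbers, with summed levels of 186 to 243 FPKM in odd and 139 to 177 FPKM in even libraries. Of 8 endothelial markers 3 were lower in odd numbers (summed 108 to 244 FPKM in odd and 160.0 to 286 FPKM in even libraries). Of 8 fibroblast markers 2 were higher (972 to 1536 FPKM in odd and 912 to 1170 FPKM in even). Of 8 smooth muscle markers 2 were lower (11313 to 17657 FPKM in odd and 13978 to 17332 FPKM in even). The genotypes differed in this. Within KO 5 of the 8 smooth muscle markers were lower in odd numbers (11313 to 12054 FPKM in odd and 13978 to 15127 FPKM in even), against 4.67% of all genes. Within Ctrl 1 of the 8 was lower, against 2.79%, and the sums ran the other way (17562 to 17657 FPKM in odd and 17260 to 17332 FPKM in even). Fat cell markers (0 of 7; 262 to 894 FPKM in odd and 237 to 362 FPKM in even) and striated muscle markers (0 of 7; 5.18 to 62.8 FPKM in odd and 4.16 to 239 FPKM in even) were not called, and 1 of 4 tested Schwann cell markers was higher in odd numbers (10.1 to 16.0 FPKM in odd and 5.69 to 10.7 FPKM in even). For genotype, where 15.0% of all genes were lower, 5 of 8 smooth muscle markers were lower in KO (11313 to 15127 FPKM in KO and 17260 to 17657 FPKM in Ctrl), as were 6 of 8 endothelial (108 to 167 FPKM in KO and 199 to 286 FPKM in Ctrl), 4 of 8 fibroblast (912 to 1135 FPKM in KO and 1154 to 1536 FPKM in Ctrl) and 3 of 4 Schwann cell markers (5.69 to 10.3 FPKM in KO and 10.4 to 16.0 FPKM in Ctrl). Of the 7 tested striated muscle markers 1 was lower in KO (4.16 to 62.8 FPKM in KO and 7.80 to 239 FPKM in Ctrl), and 0 of 7 macrophage markers (139 to 192 FPKM in KO and 170 to 243 FPKM in Ctrl) and 0 of 7 fat cell markers (237 to 525 FPKM in KO and 264 to 894 FPKM in Ctrl) were called. Of the listed markers in the table none was at 0 in all libraries. The striated muscle myosin Myh1 was listed at 0 in every library but Ctrl 1 (0.0196 FPKM) and Ctrl 4 (10.8 FPKM). The highest striated muscle sum, 239 FPKM, was that of Ctrl 4 alone. That library had 65.0 FPKM of Acta1 and 52.7 FPKM of Tnnt3, against at most 0.722 and 3.41 FPKM in any other library. Myh6 went the other way, with 0.129 FPKM in Ctrl 4 and its highest value in KO 1 (25.6 FPKM). The lymphocyte list summed to 5.93 FPKM at most. The part of these cell types, and of the glucocorticoid-induced and immediate early genes, in the values of the 8 genes was not tested.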

How the data were processed

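PolyA-selected RNA of thoracic aortas was sequenced in 8 libraries, 4 KO and 4 Ctrl. The authors deposited FPKM in 1 table with a column per library. The submitters' processing notes name TopHat2, Cufflinks, Cuffdiff and mm10 and give neither version nor role. Not given in the sources used here are the annotation, the strand setting and any further scaling, so genes that overlap an antisense gene are uncertain. Absolute depth is unknown. Relative depth is the most frequent ratio to Ctrl 1 among values under 0.3 FPKM, and that ratio held 9.74% to 18.8% of those genes.

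Tests used log2(FPKM + 1), a scale with a pseudocount of 1 that understates changes of low genes. Of 23993 genes, 12107 averaged 1 FPKM or more and were fitted by limma 3.58.1 in R 4.3.3, two-sided, with a variance trend and Benjamini-Hochberg adjustment over all of them. Genes were called at an adjusted p under 0.05. The models held genotype, genotype with library number (odd minus even), or both with their interaction. Differences within a genotype or a kind of number came from the last model. The code was tested on simulated data. No label says that each library is a separate animal, so the p-values measure the spread between libraries only, and that spread may be technical.

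The 8 genes and the gene lists were chosen with earlier results of these data known. From each list at most 6 genes with the largest differences in a comparison were named (Arntl, Clock, Nr1d1, Per1 and Per2 at any time), and the 3 genes nearest in profile for the 3 members with the widest range. Por was named after its p-value was seen. Alternatives changed the pseudocount (0.1), the filter, scaling, variance trend, library weights, covariates and the libraries included.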

Additional observations from a re-analysis of the deposited data

Results flagged for a closer look

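By the limma interaction term, the genotype difference was not the same in odd-numbered and even-numbered libraries for 3 named genes. Of all tested genes 1.62% were called for this term. The share of all genes separated with 2 libraries a side was not counted, so the separations below only describe the values. The difference of differences (odd minus even) was 1.98 on the log2 scale for Dbp (adjusted p = 0.0145), where both KO libraries lay above both Ctrl libraries among odd numbers and the genotypes overlapped among even numbers. This call was lost in 3 of 14 alternatives (adjusted p from 0.0132 to 0.0869). It was -0.76 for Rora (adjusted p = 0.0432), where both KO libraries lay below both Ctrl libraries among odd numbers and the genotypes overlapped among even numbers, and this call was lost in 9 of 14 alternatives (adjusted p from 0.0369 to 0.179). It was -1.60 for Cry1 (adjusted p = 0.00635), where both KO libraries lay below both Ctrl libraries among odd numbers and above them among even numbers, and this call was kept in all 14 alternatives (adjusted p from 0.00292 to 0.0463).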

How the results depend on the processing

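The count for genotype, 3893 genes, stayed within 1.5 times under all 18 alternatives (3102 to 4989). The count for library number, 1103 genes, was 702 with no filter, 16 in Ctrl libraries alone and 246 to 782 with 1 library left out (lowest without KO 2). The count for the interaction, 196 genes, was 92 with no filter and 32 to 107 with 1 library left out (lowest without KO 4). Fewer libraries or more tested genes enter these fits.

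Some signs turned. The genotype difference became -0.094 for Dbp and 0.044 for Rora in even-numbered libraries alone, and -0.071 for Hlf in odd-numbered libraries alone. With 1 library left out it ran from -0.096 to 0.50 for Hlf. The odd minus even difference of Rora became -0.013 with library weights and -0.31 in KO libraries alone, and ran from -0.059 to 0.15 with 1 library left out. The interaction ran from -0.061 to 0.33 for Bhlhe41 and from -1.43 to 0.57 for Nfil3 with 1 library left out. In Ctrl libraries alone the odd minus even calls of Hlf (-1.14), Nfil3 (2.36), Bhlhe41 (-1.56) and Ciart (-2.41) were lost, in a fit that called only the 16 genes above. The cause was not tested.

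Deviations from the genotype mean in same-numbered KO and Ctrl libraries correlated at 0.066, 0.138, 0.135 and 0.173. Only KO 4 correlated best with the Ctrl library of its own number. KO 1, KO 2 and KO 3 correlated best with the other Ctrl library of the same kind of number (0.149, 0.160 and 0.141). Pairs of the same kind of number ran from 0.016 to 0.173, and pairs of an odd with an even number from -0.193 to -0.055. Same-numbered libraries thus shared the odd or even division. With the replicate block 4471 genes were called for genotype, against 3893 without it, and Tef, Nfil3, Ciart and Bhlhe41 were called beside Bhlhe40. No block could be fitted for library number, which is part of the replicate number. With 2 libraries of a genotype and kind of number, small differences were not detectable, and relative depth was lowest in KO 1.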
